A study of Mus musculus with 34 samples.

Results

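The response to carbon tetrachloride (CCl4) in control mouse livers was compared gene by gene between hepatocytes and macrophages taken from them. The comparison used 17 of the study's 34 libraries and the 22586 genes listed in both cell types' count tables, of 28598 genes listed in either. Genes were sorted by the pair of responses and by the test of the difference between them, (macrophages with CCl4 minus macrophages without) minus (hepatocytes with CCl4 minus hepatocytes without), called the interaction below. All 17 libraries came from mice with floxed Yap and Taz alleles (Yap fl/fl Taz fl/fl) that lacked the osteopontin-driven, tamoxifen-inducible Cre carried by the study's knockout mice, on a mixed B6;129P background. Every mouse, controls included, had received tamoxifen at 1.6 mg/kg on 5 days when 7 to 8 weeks old, and was then left untreated for 3 weeks. The groups were hepatocytes without CCl4 (6 libraries), hepatocytes 48 h after CCl4 at 1 ml/kg (3 libraries), macrophages without CCl4 (4 libraries) and macrophages 48 h after CCl4 (4 libraries). Libraries are named by the number in their titles. No label says that libraries of a group came from separate mice, so p-values measure the spread between these libraries.

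CCl4 is turned into a reactive radical by cytochrome P450 enzymes of pericentral hepatocytes, the cells around the central vein, and kills them. The surviving hepatocytes leave quiescence and divide to restore the tissue. Kupffer cells, the liver's resident macrophages, clear dead cells, release cytokines and are partly replaced by monocytes recruited from blood. F4/80 with CD45 marks macrophages of either origin.

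The labelled cell types held in every library, but each also held RNA of the other. The 18 hepatocyte markers together made 110000 to 150000 CPM (counts per 1000000, adjusted by trimmed mean of M values factors, TMM) in hepatocytes without CCl4 and 72100 to 103000 after it. In macrophages they made 21800 to 27200 CPM without CCl4, and after it 731 to 20800 CPM, high in libraries 11 and 12 and low in 15 and 16. The 16 macrophage markers made 15000 to 19600 CPM in macrophages without CCl4 and 9980 to 16200 after it, against 132 to 405 and 328 to 522 CPM in hepatocytes. Marker by marker, hepatocyte markers in macrophages stood at a median 19.1% of their hepatocyte level without CCl4 (12.2% to 30.8%) and at 10.5% with it (6.79% to 13.6%). Macrophage markers in hepatocytes stood at a median 0.599% of their macrophage level without CCl4 (0.266% to 1.1% over 15 of the 16, the other lying higher) and at 2.84% with it (1.95% to 4.67% over the same 15). These medians are the marker ratios used below. TMM factors were set within each cell type, so the 2 cell types were not scaled to each other. Levels compared between them, here and below, are relative to the counts of each cell type. A gene is said to lie above the ratio in a cell type when its mean, in the CCl4 group where that cell type has more of it, exceeded the level the ratio gives from the other cell type by more than 2 times, a factor chosen with the data in view. In such bulk samples fewer cells of a type and less RNA per cell cannot be told apart. Totals ran from 991175 to 7535053 counts in hepatocytes and from 906619 to 5128587 in macrophages, so that 3 counts stood for 0.398 to 3.31 CPM. Hepatocyte library 15 and macrophage library 11 carry a description naming the knockout while their genotype and group labels say control, and they were kept as controls. The sequencing files fall into 2 series by number, and the first holds hepatocyte libraries 2, 7, 8, 12 and 15 and macrophage libraries 8 and 11.

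**Figure D1:**
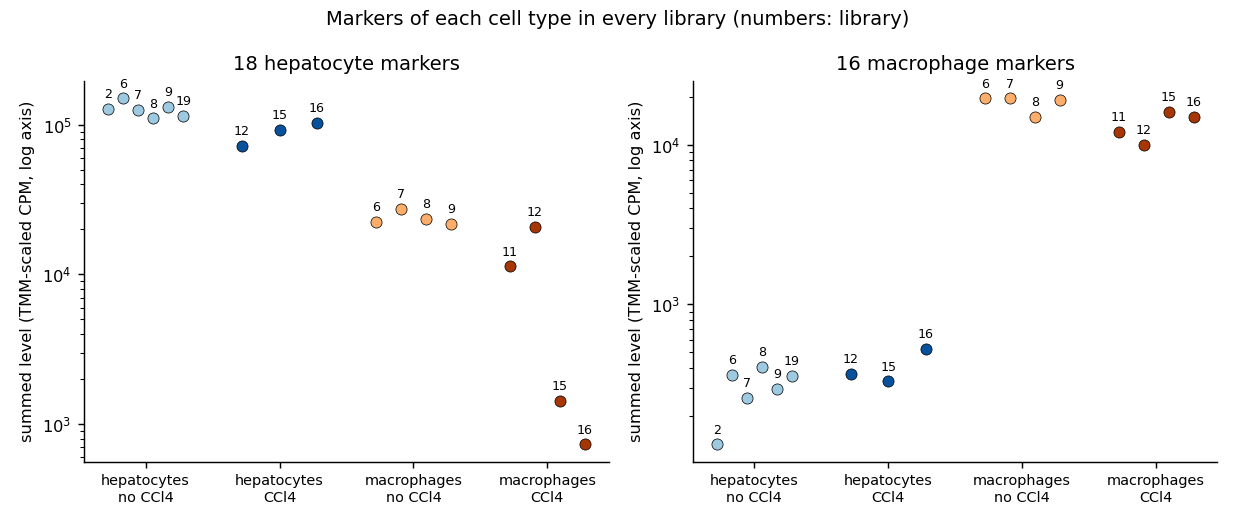
Summed level of 18 hepatocyte markers (left) and 16 macrophage markers (right) in each of the 17 libraries, as TMM-scaled CPM on a log axis, 1 point per library with its number. Hepatocyte markers in macrophages after CCl4 spread from 731 to 20800 CPM, while each list stays highest in its own cell type.

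Both cell types answered CCl4 widely, and where both answered they nearly always moved the same way. Of 9366 genes tested, 1637 (17.5%) passed an adjusted p of 0.05 in hepatocytes, 1088 up (11.6%) and 549 down (5.86%). In macrophages 1385 (14.8%) passed, 713 up (7.61%) and 672 down (7.17%). Genes called in both numbered 646, which is 39.5% of the hepatocyte calls and 46.6% of the macrophage calls. Of these, 618 (95.7%) had the same sign, 351 up (3.75% of tested genes) and 267 down (2.85%), and 28 (0.299%) had opposite signs. The interaction passed for 398 genes (4.25%), with a response higher in macrophages for 99 (1.06%) and lower for 299 (3.19%).

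Most genes called in a single cell type were not shown to differ between the cell types. Of 1730 such genes, the interaction passed for 309, and for 1421 (82.1%) it did not. The 309 were 181 genes that rose in hepatocytes only (1.93% of tested genes), 36 that fell in hepatocytes only (0.384%), 47 that rose in macrophages only (0.502%) and 45 that fell in macrophages only (0.48%). Across the tested genes the 2 log2 fold changes had a Pearson r of 0.58, and 0.55 over the 8347 genes above the marker ratio in both cells, as a description of genes that share libraries. The classes differed in how many of their genes lay above the ratio in both cells, against 89.1% of all tested genes. This held for 337 of 351 genes that rose in both (96%) but for 93 of 267 that fell in both (34.8%). It held for 107 of 181 that rose in hepatocytes only (59.1%), for 32 of 36 that fell in hepatocytes only, for all 47 that rose and 41 of 45 that fell in macrophages only, and for 22 of the 28 opposite genes.

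**Figure D2:**
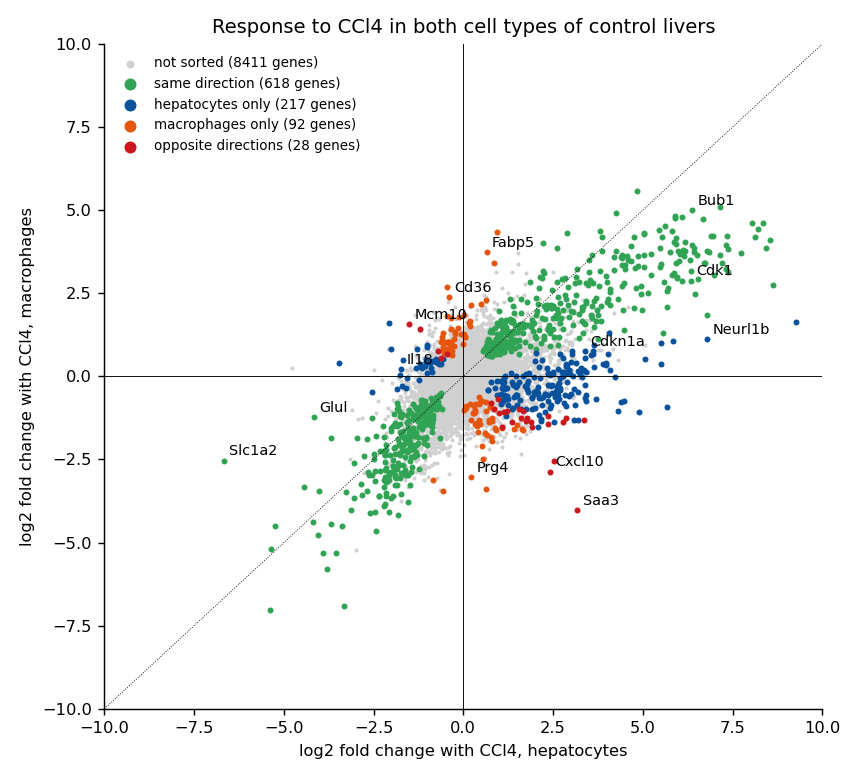
Log2 fold change with CCl4 in hepatocytes (x axis) against that in macrophages (y axis) for 9366 genes, coloured by class, with the line of equal response dotted. The 618 same-direction genes lie along the diagonal and the 28 opposite genes in the upper left and lower right.

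**Figure D3:**
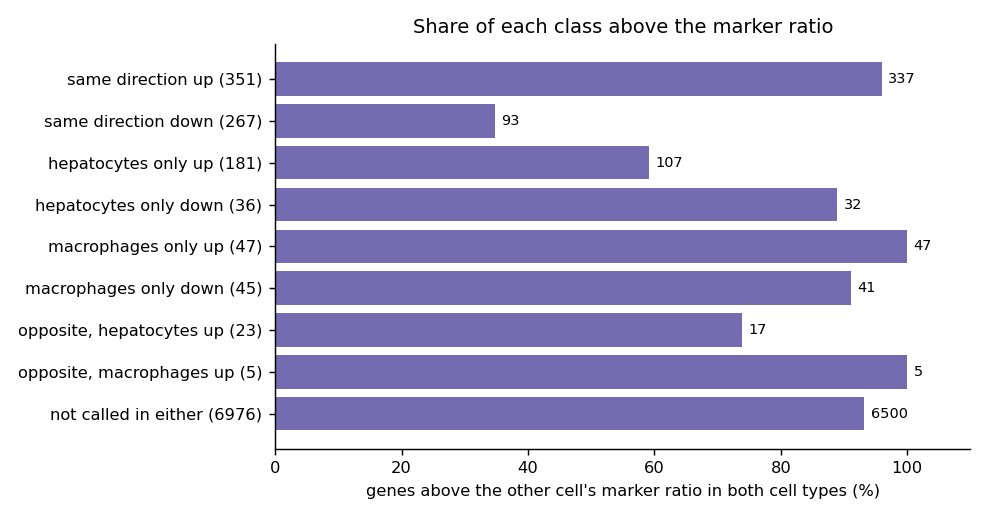
Percent of each class (x axis, number of genes in brackets) lying above the other cell's marker ratio in both cell types, with the number of such genes beside each bar. The class that fell in both cells is lowest, at 34.8%.

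The split between higher and lower calls moved with scaling. With library totals in place of TMM factors the median log2 fold change of all genes was 0.47 in hepatocytes and 0.2 in macrophages, against 0.06 and 0 with TMM. Calls were then 2391 up and 238 down in hepatocytes, 1241 up and 473 down in macrophages, and 52 higher and 459 lower for the interaction, and all changes below are relative to the TMM scale. TMM factors over all 17 libraries together gave 572 up and 923 down in macrophages. Libraries of the 2 cell types may share mice where they share a number, which the main fit left out. Libraries whose number occurs in both cell types gave 267 interaction calls, and 69 with the number as a block. With file series as a term the interaction passed for 502 genes, and in the second series alone, which has 1 hepatocyte library after CCl4 assumed to vary like the others, for 6. With the summed markers of the other cell type as a term it passed for 114 genes, and without the 2 libraries of conflicting labels also for 114. In macrophages the summed hepatocyte markers did not overlap between the groups without and with CCl4. That term therefore cannot be fully separated from CCl4 there. A call lost with it, here and below, does not tell whether the change came from hepatocyte RNA.

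The genes that rose in both cell types were led by the machinery of cell division. Ranked by the smaller of the 2 rises, among genes of at least 10 CPM in the higher CCl4 group of each cell type, the first 5 were Kif2c, a kinesin that depolymerises microtubules at centromeres, Bub1, a spindle checkpoint kinase, Ska1, a kinetochore subunit, Shcbp1, a midbody protein, and Kif14, a kinesin of cytokinesis. Of 26 tested genes on a mitosis list, 26 rose in hepatocytes and 25 in macrophages, with median log2 fold changes of 6.53 and 3.66 against 0.06 and 0 over all genes. The rise was smaller in macrophages by the interaction for 17 of the 26, for 9 without macrophage libraries 15 and 16 and for 8 without the 2 libraries of conflicting labels. Of 25 DNA replication genes, 24 rose and 1 fell in hepatocytes while 20 rose in macrophages, with medians of 2.91 and 2.32 and a lower interaction for 2. Of 16 G1/S cyclins and partners, 11 rose in hepatocytes, and in macrophages 7 rose and 1 fell. Over all tested genes 11.6% rose in hepatocytes, while 7.61% rose and 7.17% fell in macrophages. The mitosis list names 28 genes, of which 26 were tested. Members of these lists near 0 CPM without CCl4 could pass the filter on low counts only through libraries with CCl4. Their shares and medians are thus partly set by that filter.

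Promoters are shown first for 2 genes that rose in both cells (Bub1 and Cdk1), 1 that rose in hepatocytes only (Arhgap11a) and 1 that moved in opposite directions (Mcm10), because division genes are known to share a few short promoter elements. Each window runs 5′ to 3′ from 250 bases before to 50 after a RefSeq start on GRCm38.p6. Capitals mark CCAAT boxes, the CHR core (TTTGAA or TTCGAA) and E2F letters (TTTGGCGC, TTTCGCGC, TTTCCCGC or TTTGCCGC), searched on both strands.
Bub1, chr2:127831810-127832109, minus strand: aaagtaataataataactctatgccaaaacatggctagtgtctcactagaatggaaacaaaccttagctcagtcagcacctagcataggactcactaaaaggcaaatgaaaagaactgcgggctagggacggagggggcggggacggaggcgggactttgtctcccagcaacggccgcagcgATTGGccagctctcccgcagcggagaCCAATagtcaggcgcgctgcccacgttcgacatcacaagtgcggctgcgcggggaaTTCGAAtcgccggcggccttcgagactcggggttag
Cdk1, chr10:69352863-69353162, minus strand: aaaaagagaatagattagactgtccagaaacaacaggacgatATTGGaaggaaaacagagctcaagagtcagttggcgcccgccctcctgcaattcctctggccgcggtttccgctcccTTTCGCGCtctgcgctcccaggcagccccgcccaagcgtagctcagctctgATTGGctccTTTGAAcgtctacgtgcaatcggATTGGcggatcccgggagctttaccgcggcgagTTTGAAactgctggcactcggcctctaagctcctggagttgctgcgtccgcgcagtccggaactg
Arhgap11a, chr2:113848612-113848911, minus strand: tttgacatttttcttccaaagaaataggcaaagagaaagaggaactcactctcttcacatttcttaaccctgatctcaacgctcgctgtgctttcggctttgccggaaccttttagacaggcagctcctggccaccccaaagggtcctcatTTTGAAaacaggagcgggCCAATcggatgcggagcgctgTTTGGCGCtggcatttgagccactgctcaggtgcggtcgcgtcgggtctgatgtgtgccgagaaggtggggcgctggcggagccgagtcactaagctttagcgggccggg
Mcm10, chr2:5012742-5013041, minus strand: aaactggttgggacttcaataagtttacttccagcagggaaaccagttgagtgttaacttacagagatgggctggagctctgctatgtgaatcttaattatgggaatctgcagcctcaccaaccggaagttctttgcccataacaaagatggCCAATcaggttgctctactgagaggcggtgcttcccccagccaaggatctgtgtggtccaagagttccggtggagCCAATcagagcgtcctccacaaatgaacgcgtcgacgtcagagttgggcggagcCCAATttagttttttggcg
Bub1 holds 2 CCAAT boxes and 1 CHR core, Cdk1 holds 3 CCAAT boxes, 2 CHR cores and 1 E2F match, Arhgap11a holds 1 of each, and Mcm10 holds 3 CCAAT boxes and neither of the others. A window was found for 7201 of the 9366 tested genes, 9205 windows in all. The CHR core was in 14% of all windows, 35% of those of genes that rose in both, 16.4% of those that rose in hepatocytes only and 78.3% of the mitosis list. CCAAT was in 37.7% of all windows, 55.1% of those of genes that rose in both and 78.3% of the mitosis list. The box was not particular to these sets. It was in 48.8% of windows of genes that fell in both and 52.5% of those that fell in hepatocytes only. A list of cholesterol synthesis had it in 80%, and genes that rose in hepatocytes only in 37.2%. E2F letters were in 4.17% of all windows, 13.6% of those of genes that rose in both, 41.7% of the replication list and 4.35% of the mitosis list. Outside the mitosis and replication lists, genes that rose in both had the CHR core in 32.7% of windows. These are matches of letters, with no measurement of binding.

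Bub1 was at 0 CPM in 5 of 6 hepatocyte libraries without CCl4 and at 0.383 in library 8, and at 11.9, 11.4 and 11.1 CPM after it. In macrophages it was at 0.619, 0.751, 1.04 and 0 CPM without CCl4 and at 17.7, 22.4, 27.6 and 31.2 with it. No group with CCl4 overlapped its control in either cell type. With 2 counts behind the hepatocyte controls the ratio was 117 (95% counting interval 31.8 to 970), and in macrophages the log2 fold change was 5.01 ± 0.54 (SE, adjusted p = 2.64e-05). The interaction did not pass (−1.37, adjusted p = 0.408).

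Kif14 had a lowest, median and highest level of 0, 0 and 0.972 CPM in hepatocytes without CCl4 and 13.5, 16 and 20.9 CPM in the 3 libraries with it. Its macrophage levels were 0, 0, 1.66 and 1.6 CPM without CCl4 and 33.2, 27.6, 23.7 and 32.0 CPM with it. Every CCl4 library was above every control library of its cell type, with log2 fold changes of 6.10 ± 0.66 and 4.81 ± 0.63 (adjusted p = 3.83e-06 and 8.52e-05). Kif2c rose from 2 counts in hepatocytes, a ratio of 208 (57.1 to 1720), and by 5.08 ± 0.73 in macrophages (adjusted p = 0.000186). Ska1 rose by 4.84 ± 0.62 in hepatocytes (adjusted p = 2.51e-05) and from 2 counts in macrophages, a ratio of 55.4 (14.9 to 464). Shcbp1 rose by 5.91 ± 0.55 and 4.82 ± 0.55. All 5 genes lay above the marker ratio in both cells, and none of the 5 had an interaction call.

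Cdk1, the kinase that drives entry into mitosis, started from unequal levels. It was at a lowest, median and highest of 0, 1.41 and 4.02 CPM in hepatocytes without CCl4 and at 27.8, 11.3, 15.3 and 16.8 CPM in macrophages. After CCl4 it was at 145, 152 and 183 CPM in hepatocytes and 97.6, 139, 141 and 148 CPM in macrophages, so that the control groups were apart while the CCl4 groups overlapped. The rise was 6.33 ± 0.38 in hepatocytes and 2.88 ± 0.36 in macrophages, and the interaction was −3.46 ± 0.52 (adjusted p = 0.0015). Ndc80 and Cenpe, which tie chromosomes to the spindle, and Incenp, a scaffold of the chromosomal passenger complex, had interactions of −3.91 ± 0.58, −3.55 ± 0.56 and −3.09 ± 0.50 (adjusted p = 0.0015, 0.00243 and 0.00268). For Ndc80 the hepatocyte controls held 3 counts, a ratio of 153 (51.9 to 745). The interaction of these 4 genes passed in each of the 17 fits that left out 1 library.

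All 44 genes that rose in both cells with an interaction call rose more in hepatocytes. Among replication genes these included Mcm3, a helicase subunit, whose mean went from 3.83 ± 2.32 (SD, n = 6) to 54.0 ± 10.5 CPM (n = 3) in hepatocytes and from 64.9 ± 22.5 to 207 ± 45.8 CPM (n = 4 each) in macrophages. Its interaction of −2.03 ± 0.52 (adjusted p = 0.034) was lost in 9 of the 17 fits without 1 library, and that of Cdc6, which loads the helicase (−3.21 ± 0.82, adjusted p = 0.0343), in 10. For Cdc6 the hepatocyte controls held 3 counts, a ratio of 84.2 (28.4 to 412). Of 23 cytoskeleton genes 18 rose in hepatocytes and 7 in macrophages, with medians of 2.01 and 0.91. Of all tested genes 11.6% and 7.61% rose. Tubb5, a β-tubulin, rose by 3.32 ± 0.22 and 1.67 ± 0.23 with an interaction of −1.64 ± 0.32 (adjusted p = 0.00752). Stmn1, which destabilises microtubules, had an interaction of −1.71 ± 0.44 (adjusted p = 0.0347) that was lost in 9 of the 17 fits.

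**Figure D4:**
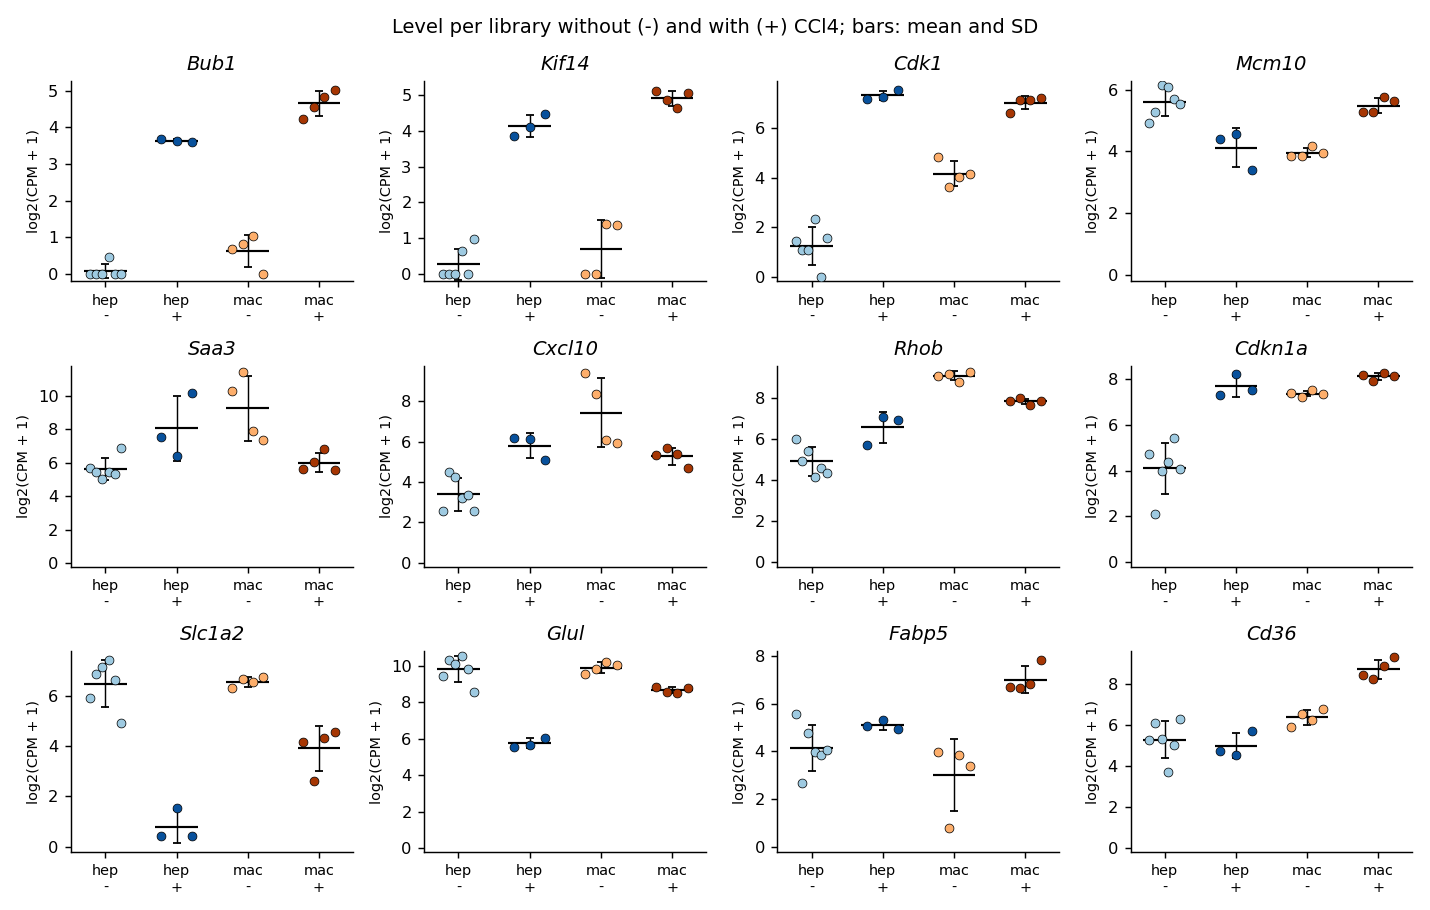
Level of 12 named genes in each library as log2(CPM + 1), without (−) and with (+) CCl4, in hepatocytes (hep) and macrophages (mac), with bars for the mean and SD. Bub1, Kif14 and Cdk1 rise in both cells, Mcm10, Saa3, Cxcl10 and Rhob move in opposite directions, and Fabp5 and Cd36 rise in macrophages.

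The genes that fell in both cell types included many genes of hepatocyte metabolism. Ranked in the same way by the smaller of the 2 falls, the first 5 were Cyp2c38, a cytochrome P450, Sult3a1, a sulfotransferase, Hamp2, a hepcidin gene, Upp2, a uridine phosphorylase, and Serpina6, the corticosteroid-binding globulin of plasma. Sult3a1 was at a lowest, median and highest of 46.7, 91.7 and 224 CPM in hepatocytes without CCl4 and at 3.80, 2.07 and 2.29 CPM with it. In macrophages Sult3a1 was at 15.5, 18, 18.5 and 30.4 CPM without CCl4 and at 0.898, 1.02, 0 and 0 CPM with it. The groups did not overlap, and log2 fold changes were −5.36 ± 0.58 and −5.19 ± 0.75 (adjusted p = 3.92e-06 and 0.000207).

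The macrophage level of these 5 genes without CCl4 was 27.7% (Cyp2c38), 17.9% (Sult3a1), 13.4% (Hamp2), 20.2% (Upp2) and 23.8% (Serpina6) of the hepatocyte level, beside the 19.1% of hepatocyte markers, and none lay above the ratio in macrophages. Hamp2 fell by 5.25 and 4.49, Upp2 by 4.18 and 4.39, and Serpina6 by 4.06 and 4.78 on the log2 scale in hepatocytes and macrophages. Cyp2c38 fell by 5.39 in hepatocytes, and in macrophages to 1 count, 160-fold lower (28.4 to 6370). In the macrophages the summed hepatocyte markers fell beside them, and the part of hepatocyte RNA in these falls was not tested. With the other cell's markers as a term the macrophage falls of Cyp2c38 and Sult3a1 did not pass (−4.81 and −3.88, adjusted p = 0.0767 and 0.112), while those of Hamp2, Upp2 and Serpina6 did (−3.75, −3.83 and −3.58, adjusted p = 0.0387, 0.0428 and 0.0121).

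The lists of hepatocyte metabolism carried the same ratio. Of 15 pericentral genes 10 fell in hepatocytes and 12 in macrophages, with medians of −2.46 and −2.47, but only 4 of the 15 lay above the marker ratio in macrophages, and 3 of the 12 falls there. Of 13 periportal genes 6 and 7 fell, with 1 above the ratio. Of 24 genes of cholesterol synthesis 17 fell in hepatocytes and 10 in macrophages, with medians of −1.40 and −1.34, and 2 of those 10 lay above the ratio. For fatty acid synthesis 9 and 7 of 15 fell, and for bile acid synthesis 4 and 5 of 11. Over all tested genes 5.86% fell in hepatocytes and 7.17% in macrophages. Cyp8b1, the enzyme that sets the cholic acid share of bile acids, fell by 3.37 and 4.51, with a macrophage level at 18.2% of the hepatocyte level without CCl4.

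Slc1a2, a glutamate transporter, and Glul, glutamine synthetase, both known from the innermost pericentral hepatocytes, were above the ratio in macrophages and fell less there. Slc1a2 was at a lowest, median and highest of 29.2, 109 and 170 CPM in hepatocytes without CCl4 and at 0.346, 1.92 and 0.327 CPM with it. Its macrophage levels were 77.9, 102, 93.5 and 106 CPM without CCl4 and 17.1, 5.10, 18.9 and 22.7 CPM with it. The 2 cell types overlapped without CCl4, and after it every macrophage library was above every hepatocyte library. Log2 fold changes were −6.67 ± 0.68 and −2.54 ± 0.49, with an interaction of 4.14 ± 0.79 (adjusted p = 0.00674), which did not pass with the other cell's markers as a term (3.62, adjusted p = 0.0667).

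Glul went from a lowest, median and highest of 377, 996 and 1480 CPM to 46.0, 50.1 and 65.4 CPM in hepatocytes. In macrophages it went from 740, 894, 1190 and 1040 CPM to 456, 381, 360 and 443 CPM. All macrophage libraries after CCl4 were thus above all hepatocyte libraries after CCl4, at means of 410 ± 47.0 and 53.8 ± 10.2 CPM. Its interaction of 2.94 ± 0.50 (adjusted p = 0.00325) passed in all 17 fits without 1 library, while its fall in macrophages (−1.24 ± 0.34, adjusted p = 0.0198) was lost without macrophage library 8 or 15. Oat, ornithine aminotransferase, of the same zone, fell by 3.69 and 1.85 with an interaction of 1.84 that did not pass (adjusted p = 0.0581).

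Of the 28 genes that moved in opposite directions, 23 rose in hepatocytes and fell in macrophages. Ranked by the smaller of the 2 changes among genes of at least 10 CPM in both cell types, the first 5 were Saa3, a serum amyloid A protein of macrophages and inflamed tissue, Slpi, an inhibitor of neutrophil proteases, Cxcl10, a chemokine for T cells, Rcan1, an inhibitor of calcineurin, and Rhob, a small GTPase. The other 5 of the 28 rose in macrophages and fell in hepatocytes: Mcm10, a replication initiation factor, Bcat2, which transaminates branched-chain amino acids, Gm2a, a lysosomal lipid-binding protein, and the mitochondrial membrane proteins Mtch2 and Phb2.

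Saa3 (chromosome 7, 46711998 to 46715700, GRCm38) was at a lowest, median and highest of 31.8, 42.7 and 117 CPM in hepatocytes without CCl4 and at 188, 84.0 and 1170 CPM with it. Macrophage levels of Saa3 were 1250, 2790, 239 and 165 CPM without CCl4 and 47.6, 64.3, 112 and 47.1 CPM with it. The hepatocyte groups overlapped and the macrophage groups did not, and macrophage libraries 6 and 7 were far above 8 and 9. The changes were 3.17 ± 0.77 and −4.03 ± 0.89 (adjusted p = 0.00806 and 0.00539), with an interaction of −7.21 ± 1.19 (adjusted p = 0.00292). The rise in hepatocytes rested on library 16, being 1.35 without it (adjusted p = 0.274). The fall in macrophages was −1.58 (adjusted p = 0.204) without libraries 6 and 7, where the interaction was −4.76 (adjusted p = 0.0196).

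Cxcl10 (chromosome 5, 92346638 to 92348889) was at a lowest, median and highest of 4.84, 8.68 and 21.7 CPM in hepatocytes without CCl4 and at 72.1, 67.9 and 32.7 CPM with it. Macrophages held 674, 329, 66.8 and 59.1 CPM of Cxcl10 without CCl4 and 38.9, 51.0, 40.6 and 24.4 CPM with it. Neither pair of groups overlapped, and libraries 6 and 7 were again highest. Its changes were 2.42 ± 0.62 and −2.86 ± 0.66, with an interaction of −5.28 ± 0.90 (adjusted p = 0.00337). Without macrophage libraries 6 and 7 the fall was −0.71 (adjusted p = 0.388) and the interaction −3.13 (adjusted p = 0.0163), and without hepatocyte library 12 the rise did not pass. Slpi changed by 2.52 ± 0.66 and −2.56 ± 0.69, and its fall was −1.36 (adjusted p = 0.251) without macrophage libraries 6 and 7. The rise of Slpi did not pass without hepatocyte library 16, nor its fall without macrophage library 7 or 16. With the other cell's markers as a term neither the rise, the fall nor the interaction passed for Saa3, Cxcl10 or Slpi. Their interactions were then −6.68, −4.85 and −4.77 (adjusted p = 0.133, 0.103 and 0.162), against −7.21, −5.28 and −5.08 in the main fit. Those of Rhob and Rcan1 passed in that setting (−3.39 and −3.2, adjusted p = 0.00845 and 0.0138).

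Rhob was at a lowest, median and highest of 16.8, 26.3 and 63.1 CPM in hepatocytes without CCl4 and at 51.0, 131 and 121 CPM with it. In macrophages Rhob was at 532, 570, 433 and 611 CPM without CCl4 and at 225, 250, 202 and 229 CPM with it, so that only the macrophage groups stood apart. Its interaction was −2.86 ± 0.50 (adjusted p = 0.00384), and its fall in macrophages (−1.24 ± 0.36, adjusted p = 0.0247) was lost in 4 of the 17 fits without 1 library. Rcan1 changed by 1.36 ± 0.35 and −1.37 ± 0.36, lost without hepatocyte library 15 and without macrophage library 6. For these 5 genes the hepatocyte level after CCl4 was 36.3% (Rcan1) to 711% (Saa3) of the macrophage level, above the 2.84% of macrophage markers. Not above the ratio in hepatocytes were 6 of the 23 genes, among them Timd4, a Kupffer cell receptor for dying cells (2.15%), and Pmaip1, a pro-apoptotic p53 target (4.66%), for which the part of macrophage RNA in the hepatocyte rise was not tested.

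Mcm10 (chromosome 2, 4989714 to 5012791) went against the other replication genes in hepatocytes. Its mean there without CCl4 was 49.9 CPM, against 3.83 for Mcm3, 1.72 for Mcm5 and 0.0945 for Cdc6. Whether reads of an overlapping gene are in the Mcm10 counts was not tested. Mcm10 was at a lowest, median and highest of 29.3, 48.2 and 69.4 CPM in hepatocytes without CCl4 and at 20.2, 22.8 and 9.49 CPM with it. In macrophages it was at 13.6, 13.5, 17.2 and 14.4 CPM without CCl4 and at 37.4, 37.8, 52.7 and 48.8 CPM with it. Neither pair of groups overlapped, with changes of −1.5 ± 0.30 and 1.57 ± 0.31 (adjusted p = 0.00224 and 0.00236). The interaction of 3.07 ± 0.43 (adjusted p = 0.00105) passed in all 17 fits without 1 library.

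Gm2a fell from 164 ± 27.2 to 101 ± 5.38 CPM in hepatocytes and rose from 206 ± 16.9 to 351 ± 27.7 CPM in macrophages, with an interaction of 1.48 ± 0.25 (adjusted p = 0.0031). Mtch2 changed by −0.63 ± 0.16 and 0.54 ± 0.16, Phb2 by −0.45 ± 0.15 and 0.66 ± 0.15, and Bcat2 by −1.20 ± 0.40 and 1.44 ± 0.38. The hepatocyte fall was lost without library 12 for Gm2a and Mtch2, and in 12 of the 17 fits each for Phb2 and Bcat2. The macrophage rise was lost without library 16 for Bcat2 and in 4 fits for Mtch2. On library totals the hepatocyte falls of all 4 did not pass (−0.31, −0.23, −0.05 and −0.80 for Gm2a, Mtch2, Phb2 and Bcat2), while their interactions did.

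Of 181 genes that rose in hepatocytes only (1.93% of tested genes), 5 were macrophage markers and 5 were proinflammatory genes. The Kupffer cell, complement and G1/S lists held 2 each. Mitosis, p53 target (Cdkn1a), immediate early, lysosome, cytoskeleton and MHC class II lists held 1 each, and lists can share genes. By the size of the interaction, with the same minimum level, the first 5 were Aurkb, the kinase of the chromosomal passenger complex, Neurl1b, a ubiquitin ligase of Notch signalling, Trim59, a ubiquitin ligase, Arhgap11a, a GTPase activator of cytokinesis, and Il1a, interleukin 1α. Aurkb was at 0 counts in all 6 hepatocyte libraries without CCl4 and at 23.3, 13.2 and 39.3 CPM with it, at least 170-fold higher against a floor of 3 counts over the group. In macrophages it was at 9.90, 12.8, 5.60 and 3.20 CPM without CCl4 and at 7.78, 35.7, 24.7 and 30.3 CPM with it. The macrophage groups of Aurkb overlapped through library 11, and their change of 1.63 ± 0.55 did not pass (adjusted p = 0.0664), while the interaction did (adjusted p = 0.00417). With 0 counts in the hepatocyte controls, the size of that interaction and its rank depend on the fit and were not measured.

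Arhgap11a, whose promoter is shown above, was at a lowest, median and highest of 0, 0.184 and 1.40 CPM in hepatocytes without CCl4 and at 36, 38.3 and 31.1 CPM with it. Macrophages held 24.7, 14.3, 30.1 and 17.6 CPM of Arhgap11a without CCl4 and 62.3, 36.7, 38.2 and 37.9 CPM with it. Neither pair of groups overlapped, yet the macrophage change of 1.00 ± 0.34 did not pass (adjusted p = 0.0591), and the interaction was −4.50 ± 0.56 (adjusted p = 0.000437). Its place in this class thus rests on a macrophage test just outside the threshold.

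Neurl1b (chromosome 17, 26414829 to 26446349) was at a lowest, median and highest of 0, 0.954 and 4.05 CPM in hepatocytes without CCl4 and at 188, 411 and 97.2 CPM with it. Its macrophage levels were 11.8, 0.751, 9.33 and 7.19 CPM without CCl4 and 21.3, 30.6, 7.25 and 8.42 CPM with it. The hepatocyte groups were far apart and the macrophage groups overlapped. The rise in hepatocytes was 6.79 ± 0.65 (adjusted p = 7.26e-07) and the interaction −5.67 ± 0.93 (adjusted p = 0.00275). After CCl4 the macrophage level was 7.27% of the hepatocyte level, beside 10.5% for hepatocyte markers. Trim59 rose by 5.83 ± 0.70 in hepatocytes, with an interaction of −4.76 ± 0.93 (adjusted p = 0.00767).

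Cdkn1a, which encodes the p53-induced cell cycle inhibitor p21, was at a lowest, median and highest of 3.26, 17.5 and 41.5 CPM in hepatocytes without CCl4 and at 160, 295 and 185 CPM with it. In macrophages it was at 166, 149, 182 and 164 CPM without CCl4 and at 289, 242, 304 and 280 CPM with it. Within each cell type the groups with and without CCl4 did not overlap, but the change of 0.75 ± 0.37 in macrophages did not pass (adjusted p = 0.182), against 3.39 ± 0.37 in hepatocytes (adjusted p = 3.54e-06). Its interaction of −2.64 ± 0.52 (adjusted p = 0.00809) passed in all 17 fits without 1 library, but not without the 2 libraries of conflicting labels (−2.35, adjusted p = 0.0571). Of 13 p53 targets 7 rose in hepatocytes and 2 fell in macrophages, with medians of 0.96 and 0.12 (−0.01 in macrophages with TMM over all 17 libraries). Over all tested genes 11.6% rose in hepatocytes and 7.17% fell in macrophages. Tubb6, a β-tubulin, rose by 3.63 ± 0.30 in hepatocytes, with an interaction of −2.88 ± 0.42 (adjusted p = 0.0015).

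Myc, a growth-promoting transcription factor, rose in hepatocytes by 2.34 ± 0.37, from 1.66 ± 0.746 to 9.34 ± 1.89 CPM, and was at 14.3 ± 2.1 and 17.3 ± 6.89 CPM in macrophages. Its interaction of −2.09 ± 0.51 (adjusted p = 0.0283) was lost in 4 of the 17 fits. Klf6, an early growth-response factor, had an interaction of −2.26 ± 0.60 (adjusted p = 0.0401) that was lost in 13. Of 15 immediate early genes 2 rose in hepatocytes, a share near the 11.6% of all tested genes. In macrophages 4 of the 15 fell, where 7.17% of all tested genes fell. The medians were 0.39 and −1.18. Of the 4 macrophage falls 1 passed without libraries 15 and 16, and DESeq2 called 10. Tnfaip3, a brake on NF-κB signalling, rose by 2.41 ± 0.57 in hepatocytes and stood at 7.96% of its macrophage level after CCl4. Its interaction of −3.35 ± 0.77 (adjusted p = 0.0203) was lost without hepatocyte library 16.

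Genes of macrophages were among those of the 181 that did not lie above the ratio in hepatocytes. Of 16 macrophage markers 10 rose and 1 fell in hepatocytes, and 1 of the 16 lay above the ratio there. Of all tested genes 11.6% rose and 5.86% fell in hepatocytes. In macrophages 0 of the 16 passed with edgeR, with 0 at an unadjusted p under 0.05 and 0 with DESeq2. Cd53, a leukocyte tetraspanin, Cd68, a lysosomal protein of macrophages, and C3ar1, the C3a receptor, rose in hepatocytes by 3.69 ± 0.76, 3.39 ± 0.49 and 3.20 ± 0.45. After CCl4 their hepatocyte levels were 2.87%, 4.67% and 2.73% of the macrophage level, beside the 2.84% of macrophage markers. Il1a was at 4.05%, and its interaction (−3.91 ± 0.94, adjusted p = 0.026) was lost in 4 of the 17 fits. The summed macrophage markers moved with these rises, and their part in them was not tested.

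Of 36 genes that fell in hepatocytes only, the first 5 by the size of the interaction were Bhlhe41, a clock repressor, Atp6v0d2, a proton pump subunit, Slc16a10, an aromatic amino acid transporter, Pmvk, phosphomevalonate kinase of sterol synthesis, and Il18, a cytokine. Il18 was at a lowest, median and highest of 24.3, 30.7 and 44.0 CPM in hepatocytes without CCl4 and at 7.09, 10.8 and 11.1 CPM with it. In macrophages Il18 was at 74.9, 78.8, 74.5 and 46.3 CPM without CCl4 and at 60.2, 57.1, 88.5 and 115 CPM with it, with overlap. The hepatocyte fall of −1.73 ± 0.28 (adjusted p = 0.00032) and the interaction of 1.95 ± 0.37 (adjusted p = 0.00736) passed in all 17 fits, but with the other cell's markers as a term the interaction did not (1.38, adjusted p = 0.122).

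Bhlhe41 was at a lowest, median and highest of 9.57, 14.7 and 46.7 CPM in hepatocytes without CCl4 and at 1.38, 2.07 and 1.64 CPM with it, while in macrophages its means were 10.9 ± 8.56 and 14.2 ± 6.89 CPM. Its interaction of 3.86 ± 0.86 (adjusted p = 0.0171) was lost without hepatocyte library 12. Slc16a10 fell by 1.67 in hepatocytes with an interaction of 2.16 ± 0.44 (adjusted p = 0.0109). Atp6v0d2 fell by 2.07, lost without hepatocyte library 12 or 15, and its interaction of 3.68 ± 0.79 was lost without library 15. Pmvk fell by 1.29, lost without hepatocyte library 12 or 16, with an interaction of 2.12 ± 0.52 lost in 6 of the 17 fits. Hal, the histidine-degrading enzyme of periportal hepatocytes, fell by 1.56, and its interaction of 1.51 ± 0.38 (adjusted p = 0.0338) was lost in 8 fits. Its macrophage level without CCl4 was 22.5% of the hepatocyte level.

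Of genes of oxidative phosphorylation a few fell in hepatocytes, and the differences per gene were small. Of 25 tested genes 5 fell in hepatocytes, 1 rose and 3 fell in macrophages, and the interaction was higher in macrophages for 6, with medians of −0.59 in hepatocytes and 0.07 in macrophages. Over all tested genes 5.86% fell in hepatocytes, 7.61% rose and 7.17% fell in macrophages, and the interaction was higher for 1.06%. Sdhb, a subunit of succinate dehydrogenase, was at a lowest, median and highest of 295, 345 and 454 CPM in hepatocytes without CCl4 and at 174, 192 and 146 CPM with it. In macrophages Sdhb was at 119, 176, 112 and 99.1 CPM without CCl4 and at 148, 154, 144 and 182 CPM with it, with overlap. Its changes were −1.06 ± 0.22 (adjusted p = 0.00249) and 0.31 ± 0.21 (adjusted p = 0.35), and the interaction was 1.37 ± 0.30 (adjusted p = 0.016). Atp5c1, a subunit of ATP synthase, fell by 0.58 in hepatocytes, a call lost in 13 of the 17 fits. Of the 6 interactions on the list, 1 passed without macrophage libraries 15 and 16, 1 without 6 and 7, and 0 without the 2 libraries of conflicting labels.

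Of 47 genes that rose in macrophages only, the first 5 by the size of the interaction were Acot7, an acyl-CoA thioesterase, Fabp5, a fatty acid carrier, Cd36, a scavenger receptor for lipids, Atp6v0a1, a proton pump subunit, and Colec12, a scavenger receptor. Fabp5 (chromosome 3, 10012548 to 10016607) was at 14.8, 0.751, 13.5 and 9.59 CPM in macrophages without CCl4 and at 101, 100, 112 and 227 CPM with it. Its lowest, median and highest in hepatocytes were 5.43, 15.1 and 45.6 CPM without CCl4, and the 3 libraries with it were at 32.0, 38.9 and 29.8 CPM. Only the macrophage groups stood apart, with changes of 3.73 ± 0.57 (adjusted p = 0.000312) and 0.65 ± 0.49 in hepatocytes (adjusted p = 0.417). The interaction of 3.08 ± 0.76 (adjusted p = 0.0292) was lost in 6 of the 17 fits.

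Cd36 (chromosome 5, 17781690 to 17888801) was at 58.8, 91.6, 72.6 and 107 CPM in macrophages without CCl4 and at 336, 300, 458 and 625 CPM with it. In hepatocytes the lowest, median and highest without CCl4 were 11.9, 37.5 and 76.8 CPM, and the values with it were 25.6, 21.7 and 49.7 CPM. Macrophages with CCl4 were thus above every other library. The changes were 2.38 ± 0.44 (adjusted p = 0.00146) and −0.41 ± 0.44 (adjusted p = 0.595), and the interaction of 2.79 ± 0.62 (adjusted p = 0.0177) was lost without hepatocyte library 12 or 15. Acot7 rose by 2.68 ± 0.49, Atp6v0a1 by 1.83 ± 0.26 and Colec12 by 1.77 ± 0.30 in macrophages, with interactions of 3.13 ± 0.66, 2.28 ± 0.37 and 2.11 ± 0.44 that passed in all 17 fits. With the other cell's markers as a term the interaction of Atp6v0a1 alone of the 5 passed (1.95, adjusted p = 0.0365). Those of Acot7, Fabp5, Cd36 and Colec12 did not (3.10, 1.71, 2.43 and 1.32, adjusted p = 0.0667, 0.279, 0.12 and 0.16). The macrophage rises of Cd36 and Colec12 were then 1.81 and 0.92 (adjusted p = 0.0534 and 0.123). Without macrophage libraries 6 and 7 the interactions of Fabp5, Cd36 and Colec12 did not pass (2.85, 2.67 and 1.82, adjusted p = 0.0646, 0.0777 and 0.0569). The same 3 did not pass without 15 and 16 (2.66, 2.36 and 1.41, adjusted p = 0.102, 0.075 and 0.0781). Without the 2 libraries of conflicting labels Acot7, Fabp5 and Cd36 did not (3.01, 3.31 and 2.67, adjusted p = 0.0578, 0.0761 and 0.0744).

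Ctsd, cathepsin D of lysosomes, rose in macrophages from 705 ± 103 to 2250 ± 598 CPM and stood at 146 ± 17.6 and 165 ± 38.5 CPM in hepatocytes, but its interaction (1.5 ± 0.37, adjusted p = 0.0295) was lost in 6 fits. Of 13 genes of lipid-associated macrophages 5 rose and 1 fell in hepatocytes, 6 rose and 1 fell in macrophages, and the interaction was higher in macrophages for 2, Fabp5 and Ctsd. Of 20 lysosome genes 3 rose in macrophages, 0 of them without libraries 15 and 16 (2 at an unadjusted p under 0.05), and in hepatocytes 1 rose and 2 fell. Over all tested genes 7.61% rose in macrophages, while in hepatocytes 11.6% rose and 5.86% fell.

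Of 24 subunits of the proteasome, which degrades tagged proteins, 4 rose in macrophages, with a list median of 0.43, and the interaction passed for the same number. Over all tested genes 7.61% rose in macrophages, and the interaction was higher there for 1.06%. In hepatocytes 0 of 24 passed with edgeR, with 0 at an unadjusted p under 0.05 and 0 with DESeq2, at a median of −0.12. On library totals 1 rose in hepatocytes and the median there was 0.29. Without macrophage libraries 15 and 16, 4 again rose in macrophages, but 0 interactions passed with edgeR (4 at an unadjusted p under 0.05). Psmc5 was at 39.6, 48.1, 45.6 and 32.0 CPM in macrophages without CCl4 and at 82.3, 94.9, 109 and 113 CPM with it. Its means in hepatocytes were 54.3 ± 8.42 and 54.3 ± 10.4 CPM, and the interaction of 1.26 ± 0.28 (adjusted p = 0.0159) passed in all 17 fits but not without macrophage libraries 15 and 16 (1.09, adjusted p = 0.0788). The interactions of Psmb3 (1.52 ± 0.34), Psmc3 (0.98 ± 0.24) and Psmb6 (1.13 ± 0.30) were lost in 2, 4 and 11 fits.

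Among the 45 genes that fell in macrophages only were Btg2 and Cdkn1b, which hold back division. The first 5 by the size of the interaction were Prg4, a secreted lubricin, Gabbr2, a GABA receptor subunit, Tspan7, a tetraspanin, Cebpd, a transcription factor of inflammation, and Btg2, an antiproliferative gene. Btg2 was at 1040, 1260, 671 and 1060 CPM in macrophages without CCl4 and at 175, 357, 225 and 189 CPM with it. In hepatocytes its lowest, median and highest were 76.8, 131 and 264 CPM without CCl4, and 186, 225 and 235 CPM were found with it, with overlap. The macrophage fall of −2.09 ± 0.36 (adjusted p = 0.000873) and the interaction of −2.61 ± 0.48 (adjusted p = 0.0057) passed in all 17 fits. Cdkn1b, which encodes the cell cycle inhibitor p27, fell by 1.07 in macrophages, and its interaction of −1.40 ± 0.33 (adjusted p = 0.023) was lost in 3 fits. The fall of Cdkn1b did not pass without macrophage libraries 6 and 7 (−0.65, adjusted p = 0.101) or without 15 and 16 (−0.93, adjusted p = 0.0702). With the other cell's markers as a term that fall was −0.91 (adjusted p = 0.123).

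Prg4 was at 195, 273, 57.4 and 36 CPM in macrophages without CCl4 and at 12.3, 33.7, 18.4 and 5.89 CPM with it, against 93.4 ± 28.9 and 109 ± 11 CPM in hepatocytes. Its interaction of −3.24 ± 0.73 (adjusted p = 0.0177) was −1.69 (adjusted p = 0.127) without macrophage libraries 6 and 7. Gabbr2 fell by 3.46 in macrophages with an interaction of −2.89 ± 0.60. Its macrophage level without CCl4 was 31.8% of the hepatocyte level, and it did not lie above the ratio in macrophages. With the other cell's markers as a term neither its fall (−2.34, adjusted p = 0.0757) nor its interaction (−1.75, adjusted p = 0.378) passed. The interaction of Gabbr2 also did not pass without macrophage libraries 15 and 16 (−2.27, adjusted p = 0.0613). Tspan7 and Cebpd were lowest in macrophage libraries 15 and 16, at 15.0 and 9.26 CPM and at 22.7 and 11.8 CPM, against 49.4 and 71.4 CPM and 54.2 and 62.2 CPM in libraries 11 and 12. In the same libraries the summed endothelial markers were also low, at 359 and 277 CPM against 2250 to 3130 CPM without CCl4, and their part in these falls was not tested. Without libraries 15 and 16 the macrophage changes were −0.80 for Tspan7 (adjusted p = 0.263) and −1.20 for Cebpd (adjusted p = 0.104).

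Inflammatory and Kupffer cell genes rose in part in hepatocytes, and Kupffer cell genes fell in part in macrophages. Of 14 proinflammatory genes 8 rose and 1 fell in hepatocytes, but 3 of the 8 that rose lay above the ratio there. In macrophages 1 of the 14 fell, Cxcl10, a share near the 7.17% of all tested genes. The medians were 2.41 and −0.54, with a lower interaction for 6. Of the 6 interactions 1 passed without macrophage libraries 6 and 7, and 3 without 11 and 12. Of 11 Kupffer cell genes 6 rose in hepatocytes and 3 fell in macrophages, with medians of 1.89 and −0.96. In hepatocytes 4 of the 11 lay above the ratio, but only 1 of the 6 that rose. Their sum in macrophages went from 13500 to 16100 CPM without CCl4 to 7020 to 11100 CPM with it, with no overlap. The 3 macrophage falls numbered 0 with edgeR without libraries 6 and 7, without 11 and 12, and without the 2 libraries of conflicting labels (3 each at an unadjusted p under 0.05), and 4 with DESeq2 on all libraries. Of 8 genes of recruited monocytes 4 rose in hepatocytes, and in macrophages 4 rose and 1 fell. Beside these lists, 11.6% of all tested genes rose in hepatocytes, while 7.61% rose and 7.17% fell in macrophages. Of 17 interferon-response genes 2 rose in hepatocytes, a share near the 11.6% of all tested genes, and the median there was −0.11 and, on library totals, 0.29. In macrophages 0 of the 17 passed with edgeR, with 4 lower at an unadjusted p under 0.05 and 2 lower with DESeq2, at a median of −0.56. The same counts, 0, 4 and 2, held for the interaction. Of 34 ribosomal protein genes 4 rose in hepatocytes and 5 in macrophages, where 11.6% and 7.61% of all tested genes rose. On library totals 23 and 11 of them rose.

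**Figure D5:**
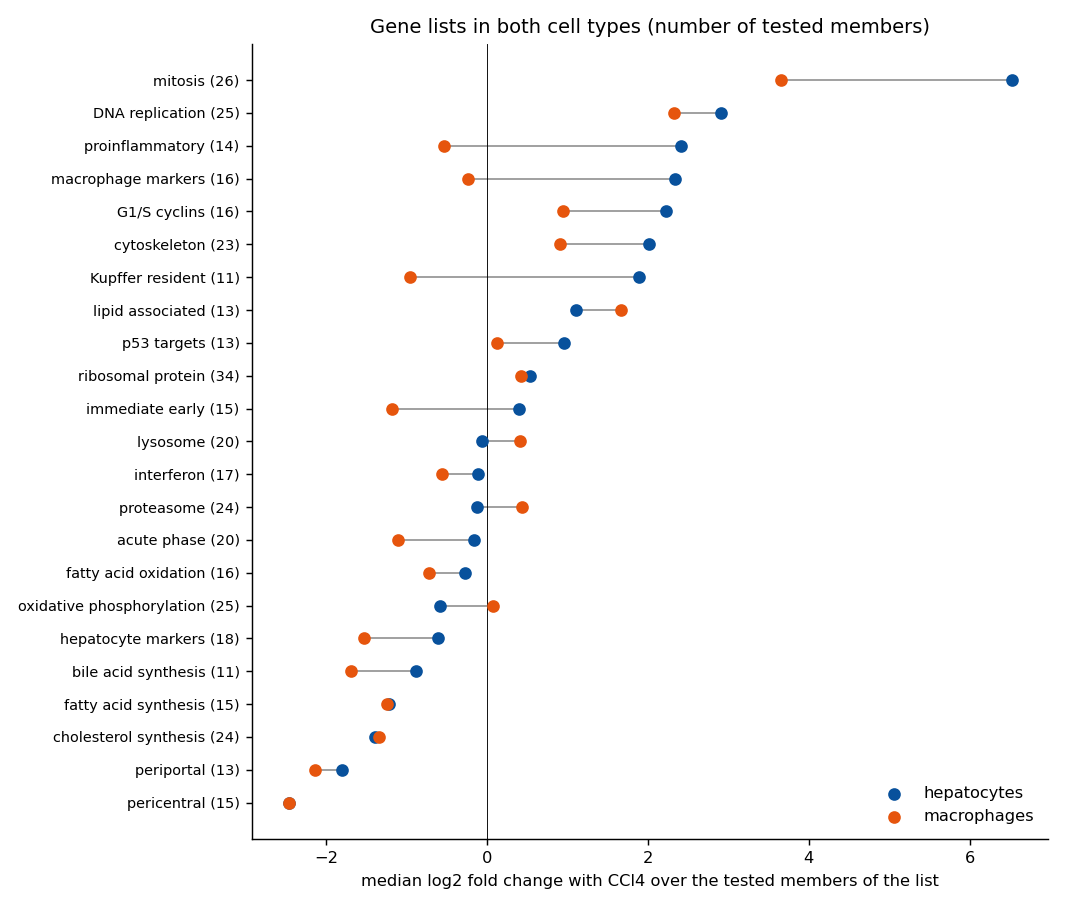
Median log2 fold change with CCl4 over the tested members of each list (number in brackets), in hepatocytes and macrophages, joined by a line. The mitosis list lies farthest right in both cells, the pericentral list at −2.46 and −2.47, and the proinflammatory and Kupffer lists on opposite sides of 0.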

How the data were processed

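RNA was measured with QuantSeq FWD 3′ libraries (50-base single reads) from hepatocytes enriched on Percoll as propidium iodide-negative cells and from macrophages sorted as F4/80+ CD45+, per the labels' protocols. The authors deposited raw counts per gene, 1 table per cell type. Trimmomatic 0.39, HISAT2 2.1.0 and GRCm38/mm10 are named in the submitters' processing notes, while no source used here gives the counter, annotation or strand setting. Reads of overlapping or antisense genes therefore cannot be told apart. Over 30 pairs of replicate libraries the chi-square of their counts was 5.16 to 42.5 times its degrees of freedom, beyond sampling noise, and all were counted separately.

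Genes of both tables passing edgeR's filterByExpr within each cell type were kept. A gene near 0 in a cell type without CCl4 could pass there only through the libraries with it, and the reverse. edgeR 4.0.16 (R 4.3.3) fitted 1 robust quasi-likelihood model to the 4 groups, with TMM factors within each cell type, which sets the mean response of each cell type near 0. P-values were Benjamini-Hochberg adjusted over all 9366 genes and called under 0.05, so every adjusted p in the text is edgeR's. "Only" means called in 1 cell type with the interaction called. SEs were taken from the fold change and its F statistic and are approximate. Intervals and floors (3 counts over a group, 95% exact intervals) cover counting error only. Named were the first 5 genes per class and direction whose higher CCl4 group reached 10 CPM in both cell types, ranked by the smaller of the 2 changes where both were called and otherwise by the interaction, and up to 4 per list by lowest interaction p. Clones, predicted genes, pseudogenes and receptor segments were passed over in the first set. Alternatives used limma 3.58.1, DESeq2 1.42.0 and other filters, scalings and sets of libraries. The steps were tested on simulated data. Members, lists and rules were chosen with earlier results of these data known. Promoter sequences are from RefSeq (GRCm38.p6). The value of 1 macrophage marker is not reported here.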

Additional observations from a re-analysis of the deposited data

Results flagged for a closer look

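Among 224 groups of 4 to 6 libraries examined, 19 held a library far from the others, where chance gives about 1 in 20. In macrophages after CCl4 these were Arhgap11a in library 11 (62.3 CPM, others 36.7 to 38.2), Cyp2c38 and Hamp2 in library 12 (1.02 and 13.3 CPM) and Fabp5 in library 16 (227 CPM). In macrophages without CCl4 they were Ctsd, Gabbr2 and Tspan7 in library 7 (552, 18 and 129 CPM), Gm2a, Il18 and Kif2c in library 9 (231, 46.3 and 2.40 CPM), Ndc80 in library 6 (8.04 CPM), Ska1 in library 8 (0.415 CPM) and the summed macrophage markers in library 8 (15000 CPM). In hepatocytes without CCl4 they were Bcat2, Kif2c and Mtch2 in library 6 (21.7, 1.09 and 149 CPM), Cd53 and Saa3 in library 19 (4.86 and 117 CPM) and Bub1 in library 8 (0.383 CPM).

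The response to CCl4 differed between the cell types, by the interaction with edgeR, for 398 genes and for 59 of the 71 described here, whose log2 interactions follow, negative where the macrophage response was lower. Of those that rose in both cells or in hepatocytes only, division genes had Aurkb −7.65, Arhgap11a −4.50, Ndc80 −3.91, Cenpe −3.55, Cdk1 −3.46, Cdc6 −3.21, Incenp −3.09, Mcm3 −2.03, Stmn1 −1.71 and Tubb5 −1.64. The value of Aurkb rests on 0 counts in hepatocytes without CCl4, so its size was not measured. Those of Ndc80 and Cdc6 rest on 3 counts there. Other genes of these classes had Neurl1b −5.67, Trim59 −4.76, Cd53 −4.36, Il1a −3.91, Tnfaip3 −3.35, C3ar1 −3.03, Tubb6 −2.88, Cd68 −2.84, Cdkn1a −2.64, Klf6 −2.26 and Myc −2.09.

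Genes higher in hepatocytes and lower in macrophages after CCl4 had Saa3 −7.21, Cxcl10 −5.28, Slpi −5.08, Pmaip1 −4.69, Timd4 −3.43, Rhob −2.86 and Rcan1 −2.72. Genes that fell in macrophages only had Prg4 −3.24, Gabbr2 −2.89, Btg2 −2.61, Cebpd −2.61, Tspan7 −2.61 and Cdkn1b −1.40.

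A response higher in macrophages was found for Mcm10 (3.07), Bcat2 (2.63), Gm2a (1.48), Mtch2 (1.17) and Phb2 (1.11), which moved in opposite directions. Genes that fell in hepatocytes, alone or more than in macrophages, had Slc1a2 4.14, Bhlhe41 3.86, Atp6v0d2 3.68, Glul 2.94, Slc16a10 2.16, Pmvk 2.12, Il18 1.95, Hal 1.51, Sdhb 1.37 and Atp5c1 1.10. Genes that rose in macrophages only had Acot7 3.13, Fabp5 3.08, Cd36 2.79, Atp6v0a1 2.28, Colec12 2.11, Psmb3 1.52, Ctsd 1.5, Psmc5 1.26, Psmb6 1.13 and Psmc3 0.98.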

How the results depend on the processing

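Counts are given in the order hepatocyte calls (1637), macrophage calls (1385), interaction calls (398), same direction (618), hepatocytes only (217), macrophages only (92) and opposite (28), and only those that moved by over 1.5 times are named. The second file series alone gave 184, 437, 6 (719 at an unadjusted p under 0.05), 104, 1, 0 (none could pass without an interaction call) and 3. Libraries thinned to the smallest total gave 494, 532, 24, 215, 7, 4 and 7 over 6643 tested genes, so fewer calls were made at that depth. Without the 2 libraries of conflicting labels there were 1011 hepatocyte and 114 interaction calls, then 394, 63, 23 and 11. With the other cell's markers as a term there were 409 macrophage and 114 interaction calls, then 266, 80, 14 and 5. Without macrophage libraries 15 and 16 there were 768 macrophage and 221 interaction calls, with 141 hepatocytes only and 37 macrophages only. Without libraries 11 and 12 there were 1082 interaction calls and 482 macrophages only, and without 6 and 7 there were 239, then 130 hepatocytes only, 44 macrophages only and 14 opposite. The last 4 settings and library totals were added after seeing the data, and library totals gave 2629 hepatocyte calls. DESeq2 gave 724 interaction calls, 338, 177 and 61 by class. Limma voom with weights by cell type gave 2816 hepatocyte and 628 interaction calls, 373 hepatocytes only and 66 opposite. A fit per cell type gave 842 macrophage and 678 interaction calls and 148 macrophages only. File series as a term gave 44 opposite, only numbers present in both cell types 55 macrophages only and 17 opposite, and a mean of 10 CPM in each cell type 106 hepatocytes only. At an adjusted p of 0.01 the classes held 307, 57, 24 and 6. Leaving out 1 library gave 986 (hepatocyte 15) to 1874 hepatocyte calls, 1027 (macrophage 16) to 1588 macrophage calls, 212 (hepatocyte 15) to 527 (hepatocyte 19) interaction calls, 423 to 674 same direction, 103 to 293 hepatocytes only, 50 to 110 macrophages only and 16 to 37 opposite. Interaction calls also fell by over 1.5 times without hepatocyte 2, 12 or 16 (225, 231 and 221) and without macrophage 16 (253). No label says whether libraries of 1 number share a mouse. By the group labels, each number found in both cell types had the same genotype and CCl4 state in both. Deviations of same-numbered libraries correlated at −0.14 to 0.33 and over 0.1 in 3 of 7 pairs, with the own number best in 2. The main fit did not pair the numbers, but such weak correlations do not show that the mice were separate. The replicate block as a term gave 69 interaction calls, with 31 named interactions on the same side of the threshold and 52 no longer past it, and as a correlation (0.09) 766. Of 9094 alternative values for 136 named genes, 7929 kept direction and side of the threshold, 1066 no longer passed, 98 newly passed and 1 reversed, the interaction of Cp, 0.26 with the other cell's markers as a term against −1.04. The causes of these shifts were not tested.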
